A study of Mus musculus with 6 samples.

Results

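The genes described here are 10 reproductive Nlrp genes of the mouse, Nlrp4a, Nlrp4b, Nlrp4c, Nlrp4e, Nlrp4f, Nlrp5, Nlrp9a, Nlrp9b, Nlrp9c and Nlrp14, chosen by name from the 25239 genes of the authors' deposited table. All 10 are in that table, 8 with a p-value and 2 listed at 0. RNA was sequenced from E14 cells, a mouse embryonic stem cell line, grown in N2B27 medium with LIF and 2i. The cells had been transfected with siRNA against Ehmt2 (labelled EHMT2 knockdown, 3 libraries) or with control siRNA (labelled WT, 3 libraries), 2 μl of a 40 μM stock each, and were collected 3 days later. Both groups are of the same line and received the same transfection reagent, and nothing in the labels says whether the 3 libraries of a group are separate cultures, so the p-values may measure technical spread. The question put to these genes is whether their transcripts change when the H3K9 methyltransferase Ehmt2 (G9a) is reduced.

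NLRP proteins carry an effector domain, a nucleotide-binding NACHT domain and leucine-rich repeats. Some, such as Nlrp3, assemble inflammasomes in immune cells, whereas the Nlrp4, Nlrp5, Nlrp9 and Nlrp14 groups of the mouse are known mainly from oocytes and early embryos, where several are maternal products that the embryo needs for its first divisions. Nlrp5, also called MATER, is a core protein of the subcortical maternal complex of the egg. Ehmt2 places mono- and dimethylation on H3K9, a mark of silent genes, and is known to keep many germline genes silent in embryonic stem cells.

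The stretch before the annotated start of transcription is printed for 5 of the genes, because they show which members share an upstream sequence and which do not. Nlrp4c, Nlrp4b and the second annotated start of Nlrp4a are related there, while Nlrp5 and Nlrp4e rose with Nlrp4c but begin differently. Each is the 250 bases upstream of the start, 5′ to 3′ on the gene's strand, from RefSeq (GRCm38.p6), with CG dinucleotides in capitals. All 5 genes lie on the plus strand, at chr7:6044911-6045160 for Nlrp4c, chr7:10687543-10687792 for Nlrp4b, chr7:26435364-26435613 for the second annotated start of Nlrp4a, chr7:23385639-23385888 for the upstream start of Nlrp5 and chr7:23300942-23301191 for Nlrp4e.
Nlrp4c: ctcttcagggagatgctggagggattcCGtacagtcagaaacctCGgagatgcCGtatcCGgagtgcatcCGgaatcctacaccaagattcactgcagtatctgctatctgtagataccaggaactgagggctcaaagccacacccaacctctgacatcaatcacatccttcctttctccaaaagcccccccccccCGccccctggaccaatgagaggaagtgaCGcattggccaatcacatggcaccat
Nlrp4b: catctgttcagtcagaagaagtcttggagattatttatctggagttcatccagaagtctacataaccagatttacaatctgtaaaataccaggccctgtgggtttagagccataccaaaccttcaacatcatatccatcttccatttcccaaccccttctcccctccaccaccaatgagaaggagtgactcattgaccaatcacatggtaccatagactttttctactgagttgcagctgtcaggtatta
Nlrp4a: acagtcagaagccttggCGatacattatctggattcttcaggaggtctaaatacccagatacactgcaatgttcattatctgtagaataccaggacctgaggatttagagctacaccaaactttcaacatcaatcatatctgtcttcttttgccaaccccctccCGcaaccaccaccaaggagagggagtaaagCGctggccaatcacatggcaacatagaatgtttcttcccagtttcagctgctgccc
Nlrp5: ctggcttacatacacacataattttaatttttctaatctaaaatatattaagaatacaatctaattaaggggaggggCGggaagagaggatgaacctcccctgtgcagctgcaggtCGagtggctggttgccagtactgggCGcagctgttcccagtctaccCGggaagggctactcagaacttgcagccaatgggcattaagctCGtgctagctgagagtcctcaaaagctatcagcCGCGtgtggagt
Nlrp4e: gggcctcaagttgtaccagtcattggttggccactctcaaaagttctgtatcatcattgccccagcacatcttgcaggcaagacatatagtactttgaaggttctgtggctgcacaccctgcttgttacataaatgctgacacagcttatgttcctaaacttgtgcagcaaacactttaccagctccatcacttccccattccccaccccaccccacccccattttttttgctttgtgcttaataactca

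Ehmt2 itself had a log2 fold change of -1.53 in the authors' deposited table (95% interval -1.76 to -1.29), which sets the sign used here, Ehmt2 siRNA over control siRNA. The table holds no value per library. Each deposited mean is, however, the mean of 6 whole read numbers divided by 6 size factors, and genes with a single read give those factors, 1.25, 0.952 and 0.952 on the Ehmt2 siRNA side and 1.05, 1.01 and 0.845 on the control siRNA side. For 7 members 1 set of whole reads per library was found that gives the deposited mean and, in a refit, the deposited fold change. Values per library below are these reads divided by the size factor, with libraries in the order of the factors just given. Which replicate number each library carries is unknown. Reads were solved for listed genes only, so how often the groups fail to overlap over all genes is unknown. The 8 embryonic stem cell markers listed had mean normalized counts of 19550 to 122000 over all libraries. None of the 8 passed in either direction, beside 10.3% of all genes tested, with 1 higher and 1 lower in the DESeq2 comparison before adjustment. Those 2, Nanog (0.15) and Esrrb (-0.13), are named after their values were seen.

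Of the 8 members with a p-value, 5 were higher after Ehmt2 siRNA at a Benjamini-Hochberg adjusted p below 0.05 (Nlrp4c, Nlrp4e, Nlrp4f, Nlrp5 and Nlrp14), none was lower, and 3 (Nlrp4a, Nlrp9b and Nlrp9c) did not pass. Over all 20461 genes tested, 10.3% passed, 5.45% as higher and 4.82% as lower. Before adjustment, at p under 0.05, the DESeq2 comparison also gives 5 higher and 0 lower members. The median log2 fold change of the 8 members was 1.66, against 0.01 over all genes tested. The share called higher differed with level over all genes. It was 50 of 5315 genes with a mean normalized count below 10, where Nlrp4e lies (4.16), and 179 of 2224 from 10 to 50, where Nlrp5 lies. It was 325 of 3265 from 50 to 500, the bin of Nlrp4c and Nlrp14, and 562 of 9657 above that, the bin of Nlrp4f (1288). As these are bulk libraries, more cells with a transcript and more transcript per cell cannot be told apart.

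**Figure D1:**
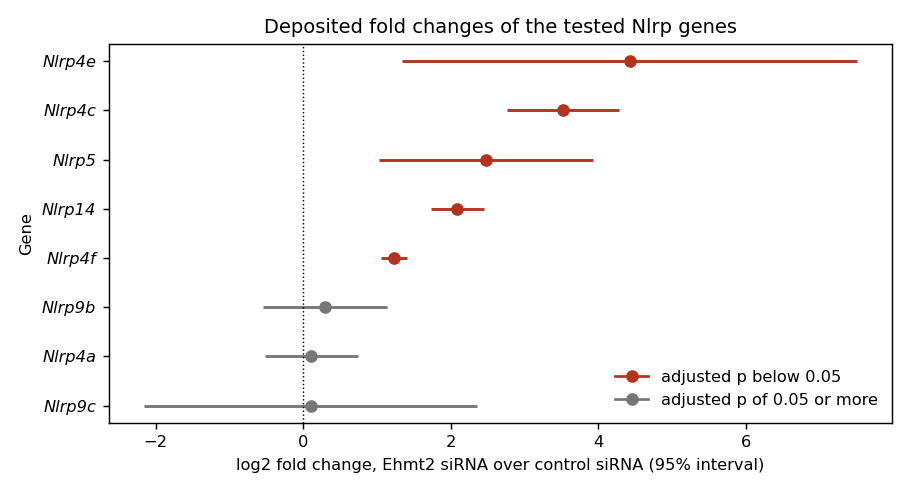
Log2 fold change of each tested Nlrp gene (x axis, Ehmt2 siRNA over control siRNA, authors' deposited table), with the 95% interval implied by its p-value as a line. The intervals of the 5 genes in red lie above 0, from Nlrp4f at 1.23 to Nlrp4e at 4.42, and those of Nlrp9b, Nlrp4a and Nlrp9c span 0.

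The Nlrp4 genes encode relatives of human NLRP4, which in human cells restrains type I interferon signalling. Nlrp4c (chromosome 7, 6045161 to 6105149, GRCm38) had 262, 609 and 500 normalized reads in Ehmt2 siRNA libraries, against 63.0, 25.9 and 29.6 in control siRNA libraries. The groups did not overlap, with the first Ehmt2 siRNA library lowest and the first control siRNA library highest of its group. The means were 457 ± 178 in Ehmt2 siRNA cells and 39.5 ± 20.5 in control siRNA cells (SD, n = 3 each). In the authors' deposited table this is a log2 fold change of 3.52 (interval 2.77 to 4.28), or 11.5-fold, with a Benjamini-Hochberg adjusted p of 2.03e-17 over all genes of the DESeq2 comparison. By fold change it is number 61 of the 1116 genes called higher.

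Nlrp4f, a component of the maternal complex of mouse eggs, was the highest member and the one with the narrowest interval. It is the only member off chromosome 7 (chromosome 13, 65177111 to 65205716, GRCm38). Its reads per library were not solved. The deposited mean of 1288 and fold change imply about 1806 normalized reads in Ehmt2 siRNA cells and 769 in control siRNA cells. In the authors' deposited table it had a log2 fold change of 1.23 (interval 1.06 to 1.41), or 2.35-fold, with an adjusted p of 1.15e-39 in the DESeq2 comparison. Its p-value is number 16 of the table, counted from the smallest.

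Nlrp4e, whose product is needed in mouse for early embryo development, was close to undetected in control cells. It lies at 23301192 to 23362277 of chromosome 7. It had 9, 13 and 3 reads in Ehmt2 siRNA libraries, 7.21, 13.7 and 3.15 after normalization, against 1, 0 and 0 reads in control siRNA libraries. The groups did not overlap, but the control level rests on 1 read. The ratio of normalized totals, 25 reads against 1, was 23.0 with an exact 95% interval of 3.76 to 943 that covers counting error only. The authors' deposited table gives a log2 fold change of 4.42 (interval 1.34 to 7.50), whose adjusted p of 0.0483 in the DESeq2 comparison lies just under the threshold. That call was lost once a smoothed trend of fold change on transcript GC content was removed (adjusted p 0.0638). Without the Ehmt2 siRNA library with 13 reads the log2 ratio of the recovered means fell to 4.02, against 4.65 with all libraries, and without either control library at 0 reads it was 4.07.

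Nlrp4e is also the member whose reads are hardest to place. Over its longest reading frame it was 93.9% identical to Nlrp4c, the closest pair of the 10 genes. Of all stretches of 100 bases in its longest transcript, 11.5% also occur in transcripts of other genes, 21 of them in Nlrp4c and 377 in the predicted gene Gm8486, and a stretch can occur in several. Reads of Nlrp4e amounted to 1.81% of those of Nlrp4c in Ehmt2 siRNA libraries and to 0.855% in control siRNA libraries, and the part of misplaced Nlrp4c reads in this was not tested. The other members stand apart more clearly. The share of such stretches was 0.939% for Nlrp4c, 0.145% for Nlrp4f, 2.52% for Nlrp5, and 0 for Nlrp14, Nlrp4a and Nlrp4b, although reading frames within the Nlrp4 group were 77.2% to 93.9% identical and those within the Nlrp9 group 82.3% to 87.5%.

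Nlrp4a did not pass. It is 86.3% identical to Nlrp4c over the reading frame. It had 52.9, 78.8 and 80.9 normalized reads in Ehmt2 siRNA libraries, against 73.6, 76.6 and 45.0 in control siRNA libraries. The groups overlap, with means of 70.8 ± 15.6 in Ehmt2 siRNA cells and 65.0 ± 17.4 in control siRNA cells (SD, n = 3 each). In the authors' deposited table it had a log2 fold change of 0.11 (interval -0.52 to 0.74), which excludes a rise as large as that of Nlrp4f or Nlrp4c. Nlrp4b, at 10687793 to 10730168 of chromosome 7, had 0 reads in all 6 libraries, which allows up to 3 reads over them.

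**Figure D2:**
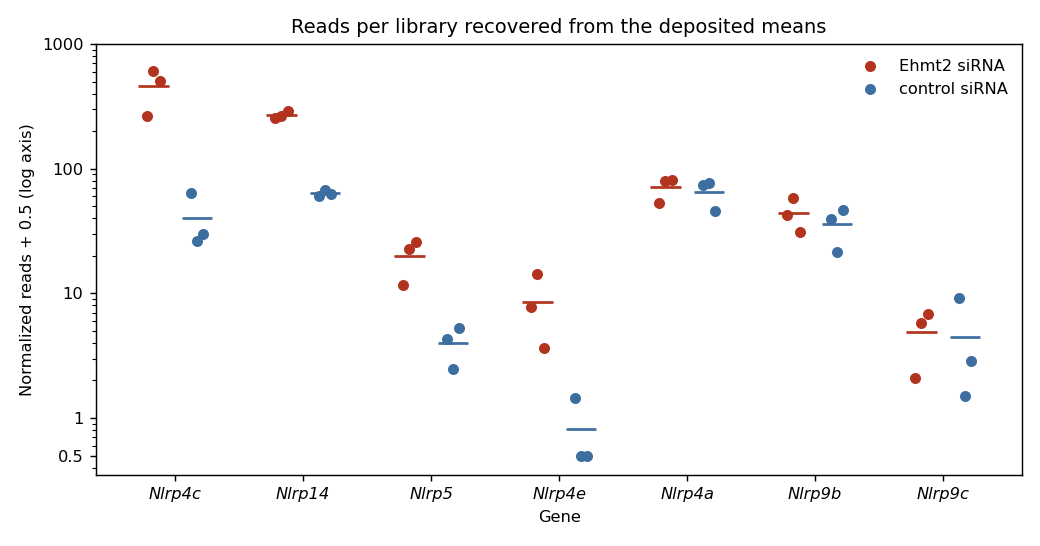
Normalized reads plus 0.5 (y axis, log scale) of 7 Nlrp genes in each library, with Ehmt2 siRNA in red and control siRNA in blue and a bar at each mean of 3 libraries. The groups are apart for Nlrp4c, Nlrp14, Nlrp5 and Nlrp4e and overlap for Nlrp4a, Nlrp9b and Nlrp9c, and points at 0.5 are libraries with 0 reads.

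Nlrp5 and Nlrp14 are the members with the best described loss of function in mice, females without either being infertile because their embryos arrest early. Nlrp14 (chromosome 7, 107113455 to 107198103) had 255, 264 and 289 normalized reads in Ehmt2 siRNA libraries, against 60.2, 66.7 and 62.7 in control siRNA libraries. The libraries within each group were close together, with means of 269 ± 17.7 in Ehmt2 siRNA cells and 63.2 ± 3.26 in control siRNA cells (SD, n = 3 each), and the groups did not overlap. The authors' deposited table gives a log2 fold change of 2.09 (interval 1.73 to 2.45), or 4.25-fold, with an adjusted p of 1.25e-27 in the DESeq2 comparison. Leaving out any 1 library gave log2 ratios of 2.04 to 2.13.

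Nlrp5 (chromosome 7, 23385889 to 23441923) was a low transcript in both groups. It had 11.2, 22.1 and 25.2 normalized reads in Ehmt2 siRNA libraries, against 3.82, 1.99 and 4.74 in control siRNA libraries, without overlap. The means were 19.5 ± 7.34 in Ehmt2 siRNA cells, from 59 reads, and 3.52 ± 1.40 in control siRNA cells, from 10 reads (SD, n = 3 each). The authors' deposited table gives a log2 fold change of 2.48 (interval 1.02 to 3.93), or 5.57-fold, with an adjusted p of 0.0125 in the DESeq2 comparison. Nlrp5-ps, an annotated pseudogene read after its value was seen, shares 86 stretches of 100 bases with Nlrp5. It had 82.5, 78.8 and 92.4 normalized reads in Ehmt2 siRNA libraries, against 59.2, 56.7 and 46.2 in control siRNA libraries, and its log2 fold change of 0.64 did not pass (adjusted p 0.0844 in the DESeq2 comparison).

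No gene of the Nlrp9 group passed. Nlrp9b is known in the mouse intestine as the sensor of an inflammasome against rotavirus. It had 41.7, 57.8 and 30.5 normalized reads in Ehmt2 siRNA libraries, against 39.2, 20.9 and 46.2 in control siRNA libraries, and the groups overlap. In the authors' deposited table it had a log2 fold change of 0.29 (interval -0.54 to 1.13). Nlrp9c had 2, 5 and 6 reads in Ehmt2 siRNA libraries, against 9, 1 and 2 in control siRNA libraries, which overlap as well. The interval of its log2 fold change, 0.10, ran from -2.15 to 2.36 and so includes the 2.09 of Nlrp14. A change of that size is therefore not excluded for Nlrp9c. Nlrp9a had 0 reads in all 6 libraries, again allowing up to 3 reads over them.

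Per kilobase of the longest transcript, Nlrp4f was the most abundant member in both groups, at 509 normalized reads per kb in Ehmt2 siRNA cells and 217 in control siRNA cells. The order below it differed between groups. In Ehmt2 siRNA cells Nlrp4c (126 ± 49.1) and Nlrp14 (82.2 ± 5.42) came next, and differed by less than the spread of Nlrp4c. Nlrp4a (16.6 ± 3.66), Nlrp9b (12.9 ± 4.10), Nlrp5 (5.56 ± 2.09), Nlrp4e (2.37 ± 1.57) and Nlrp9c (1.36 ± 0.767) followed (SD over 3 libraries). In control siRNA cells Nlrp14 (19.3 ± 0.996), Nlrp4a (15.3 ± 4.10), Nlrp4c (10.9 ± 5.66) and Nlrp9b (10.6 ± 3.90) lay close together, and the gaps between neighbours in this order were smaller than the larger of their SDs. Nlrp9c (1.24 ± 1.26), Nlrp5 (1.0 ± 0.399) and Nlrp4e (0.0942 ± 0.163) were lowest. In Ehmt2 siRNA cells the lowest library of Nlrp4c (262 normalized reads) lay above the highest of Nlrp4a (80.9).

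Outside the reproductive groups, 11.8% of the tested genes of the wider NLR family passed, all as higher. Over all genes it was 10.3% in either direction and 5.45% as higher. Of 17 tested, Nlrp10, which lacks the leucine-rich repeats, and Naip1, a sensor of bacterial secretion needles, rose, and none fell (4 higher and 2 lower before adjustment in the DESeq2 comparison). The median of this list was -0.11, beside 1.66 for the reproductive genes. Nlrp10 had 44.1, 31.5 and 25.2 normalized reads in Ehmt2 siRNA libraries, against 11.5, 3.98 and 8.29 in control siRNA libraries (authors' deposited table, log2 fold change 2.09, adjusted p 0.00325 in the DESeq2 comparison). Naip1 had 126, 111 and 117 normalized reads in Ehmt2 siRNA libraries, against 29.6, 17.9 and 28.4 in control siRNA libraries (log2 fold change 2.23). The other Naip genes, named after their values were seen, were low and did not pass. Naip6 had 11.2, 4.2 and 5.25 normalized reads in Ehmt2 siRNA libraries, against 0, 0.995 and 0 in control siRNA libraries (adjusted p 0.0649 in the DESeq2 comparison). Naip5 had 19.2, 13.7 and 9.45 in Ehmt2 siRNA libraries, against 2.87, 5.97 and 2.37 in control siRNA libraries (adjusted p 0.0991 in the DESeq2 comparison). Naip2 had 4.81, 3.15 and 4.2 in Ehmt2 siRNA libraries, against 0, 0.995 and 1.18 in control siRNA libraries (adjusted p 0.367 in the DESeq2 comparison). Nlrp2, another maternal Nlrp gene of the mouse and the list's member without a p-value, was listed at 0. Nlrp4g, a further Nlrp4 copy on chromosome 9 that was read after its value was seen, had 167, 201 and 200 normalized reads in Ehmt2 siRNA libraries, against 14.3, 37.8 and 33.1 in control siRNA libraries, a log2 fold change of 2.74 in the authors' deposited table.

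Of genes that work with inflammasome NLR proteins 12.5% passed, which is 1 gene, beside 10.3% of all genes in either direction and 5.45% as higher. Of 8 tested, Aim2, a sensor of cytosolic DNA, rose by a log2 fold change of 0.27 and none fell (1 higher and 1 lower before adjustment in the DESeq2 comparison). Casp1, the inflammasome protease, and Mefv, the pyrin gene, have no p-value and were listed at 0. The partners of Nlrp5 in the subcortical maternal complex, Ooep, Tle6, Khdc3, Padi6 and Zbed3, had log2 fold changes of -0.36 to 0.05 in the authors' deposited table. None of these 5 passed in the DESeq2 comparison, with 0 higher and 0 lower also before adjustment.

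Markers of oocytes passed at a share near that of all genes (11.8%, beside 10.3%). Of 19 in the table, 2 were listed at 0 (H1f8 and Oosp1) and 17 were tested, of which Bmp15, an oocyte growth factor, rose and Zp3, a zona pellucida protein, fell. The median of the list was 0.01, with 2 higher and 1 lower before adjustment in the DESeq2 comparison. The other higher one was Zp2, a zona pellucida gene named after its value was seen, with a log2 fold change of 2.07 and an adjusted p of 0.0581 in the DESeq2 comparison (0.0471 adjusted over genes listed in order of p). Reads per library are known for 17 markers, 2 of them at 0. Their sum was 189 to 205 normalized reads in Ehmt2 siRNA libraries and 127 to 193 in control siRNA libraries. Left out are Sohlh2 (mean normalized count 4096) and Zp3 (401), whose reads were not solved. Over all tested markers the deposited means and fold changes imply 5624 normalized reads in Ehmt2 siRNA cells and 3736 in control siRNA cells. Most of these are reads of Sohlh2, named after its value was seen (5076 and 3117, adjusted p 0.346 in the DESeq2 comparison). Bmp15 had 14.4, 12.6 and 5.25 normalized reads in Ehmt2 siRNA libraries, against 0, 1.99 and 1.18 in control siRNA libraries, with a log2 fold change of 3.37 and an adjusted p of 0.0429 in the DESeq2 comparison. Zp3 had a log2 fold change of -0.36 (adjusted p 0.0496 in the DESeq2 comparison). Both calls were lost once the GC trend was removed (adjusted p 0.0595 for Bmp15 and 0.241 for Zp3), and that of Zp3 also after centring on the median (0.0517). Of 14 markers of germ cells of either sex, Asz1 (2.62) and Nanos3 (0.92) rose and none fell, with 3 higher and 1 lower before adjustment in the DESeq2 comparison. That is 14.3% of the list, beside 10.3% of all genes in either direction and 5.45% as higher. The median of the list was 0.22.

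Genes that mark 2-cell-like cells, a small fraction of such cultures, moved in the same direction as the 5 Nlrp genes. Of 18 tested, 16 rose and none fell (16 higher and 0 lower before adjustment in the DESeq2 comparison), with a median of 2.62. That is 88.9% higher, beside 5.45% of all genes. Most of the list are copies within the Zscan4, Usp17l, Tdpoz and Tcstv families, so they are not separate cases. The 2 that did not pass, Dux (1.62) and Tdpoz1 (2.22), are named after their values were seen. The smallest p-values were those of Zscan4d (log2 fold change 3.27), Usp17le (3.36) and Usp17lb (3.71). Summed over 15 of them, the level was 441, 920 and 903 normalized reads in Ehmt2 siRNA libraries, against 129, 120 and 55.6 in control siRNA libraries. The first Ehmt2 siRNA library was the lowest of its group here. It was also lowest for Nlrp4c, Nlrp5 and Nlrp14, which rose, and for Nlrp4a and Nlrp9c, which did not pass, but not for Nlrp4e or Nlrp9b. The third control siRNA library was the lowest of its group here and for Nlrp4a, and the highest for Nlrp5 and Nlrp9b. The part of 2-cell-like cells in the change of the Nlrp genes was not tested. Of 7 fibroblast genes tested Col1a2 rose (log2 fold change 2.43) and none fell, with 2 higher and 1 lower before adjustment in the DESeq2 comparison. The share was 14.3%, beside 10.3% of all genes in either direction and 5.45% as higher. The list median of 1.65 is the value of Col3a1, with 4 reads in Ehmt2 siRNA libraries against 1 in control siRNA libraries. Of the others, all named after their values were seen, Col1a1 (-0.39), Pdgfrb (-0.33) and Thy1 (-1.01) were lower and Lum (2.03) and Postn (2.46) higher, without passing. The part of other cell types in the change of the Nlrp genes was not tested.

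**Figure D3:**
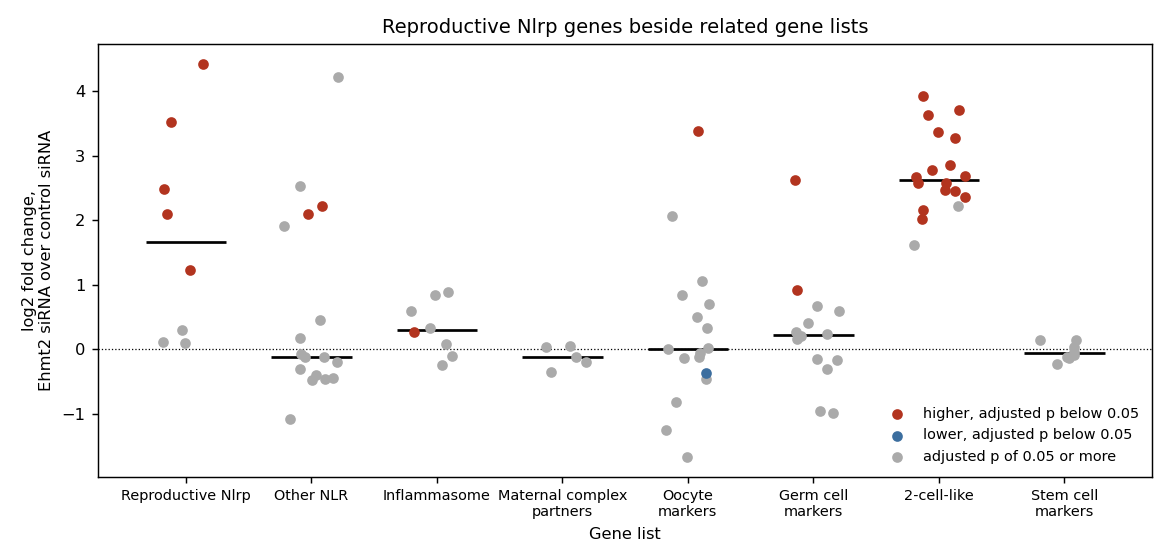
Log2 fold change (y axis, Ehmt2 siRNA over control siRNA, authors' deposited table) of every tested gene of 8 lists (x axis), with red for higher and blue for lower at an adjusted p below 0.05 and a black bar at each median. The reproductive Nlrp genes split into 5 higher genes and 3 near 0, and the 2-cell-like list has the highest median, 2.62.

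All tested members but Nlrp4f lie on chromosome 7, some of them close together. Nlrp4e and Nlrp5, which both rose, are 23.6 kb apart. Nlrp9c, Nlrp4a and Nlrp9a follow each other with gaps of 31.4 kb and 58.9 kb, where Nlrp9c and Nlrp4a did not pass and Nlrp9a had no read. Around all members, 76 other protein-coding genes lie within 250 kb, of which 43 were listed at 0. Of the 33 tested, 1 rose and 3 fell, beside 5.45% higher and 4.82% lower over all genes tested. Zscan4b, a 2-cell-like gene 171 kb from Nlrp4b, rose by a log2 fold change of 2.46, while Nlrp4b itself had no read. Zscan4a, named after its value was seen, lies between Nlrp4b and Zscan4b (10794241 to 10799065). It is annotated as a pseudogene and so is not in this count, and it rose as well (log2 fold change 2.57). Cblc (-0.57), Bcl3 (-0.31) and Bcam (-0.19) fell, all on the lower-coordinate side of Nlrp9b, and the calls of Bcl3 and Bcam were lost once the GC trend was removed (adjusted p 0.325 and 0.690). The 7 tested neighbours of Nlrp4c had log2 fold changes of -0.53 to 0.28, and none passed. Rbmxl2, which lies 11.3 kb from Nlrp14 and was picked for its position after values were seen, stood at 0.03. Farther out, and also named after values were seen, the olfactory receptor genes Olfr701 (log2 fold change 2.08) and Olfr697 (5.07, from a mean normalized count of 3.21) rose, at -293 kb and -371 kb from Nlrp14, where negative is towards lower coordinates.

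**Figure D4:**
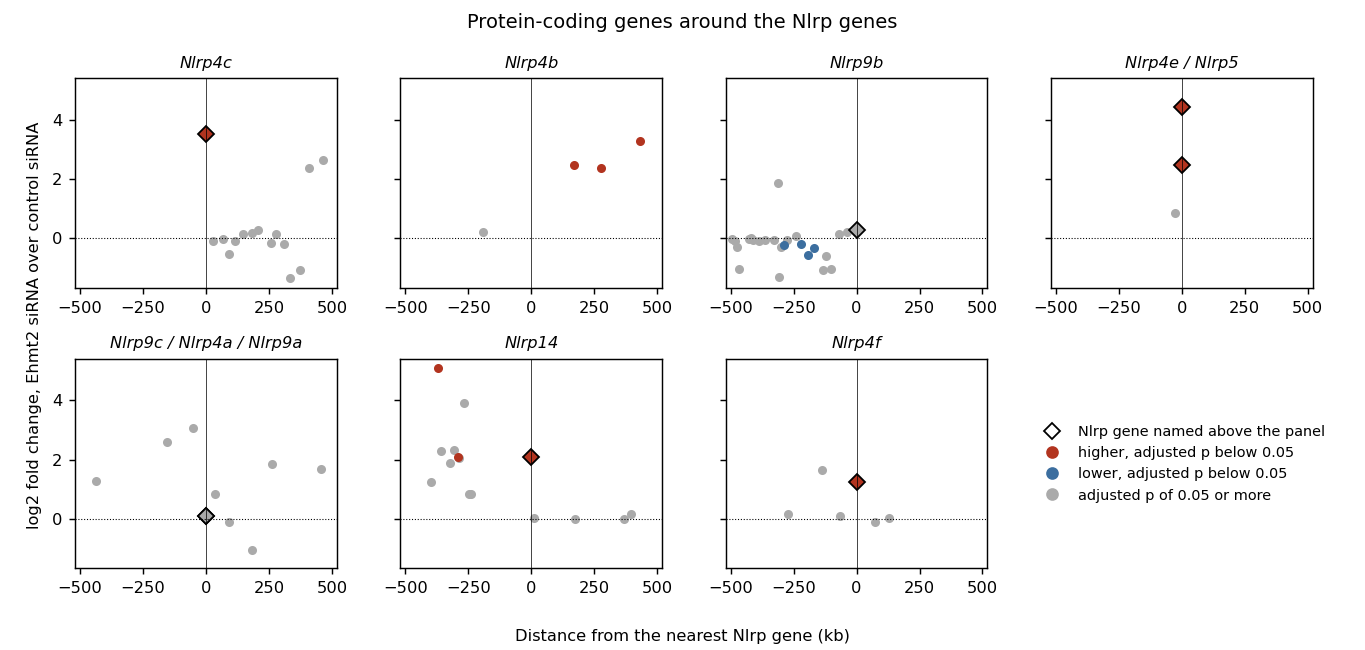
Log2 fold change (y axis, Ehmt2 siRNA over control siRNA) of tested protein-coding genes within 500 kb of the Nlrp genes, by distance from the nearest one (x axis, kb, negative towards lower coordinates), with the Nlrp genes as diamonds at 0. Nlrp4c, at 3.52, stands above its 7 tested neighbours within 250 kb, which lie between -0.53 and 0.28. Olfr697, at 5.07, is the highest neighbour of Nlrp14, and Spata31d1c, named after its value was seen, lies at 1.65 near Nlrp4f without passing. Nlrp4a and Nlrp9c share 1 position near 0 in their panel.

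The upstream sequences printed above differ in what the members share. RefSeq windows of 300 bases, 250 before and 50 after a start, were found for 9 of the 10 genes, 12 windows in all, and that of Nlrp14 is not among them. The Nlrp4c window aligned with that of Nlrp4b over 282 columns at 74.1% identity and with that of the second Nlrp4a start over 282 columns at 74.5%. Within these alignments Nlrp4c held 7 CG dinucleotides where Nlrp4b held 0, and 6 where Nlrp4a held 3. The window of the first Nlrp4a start aligned with that of Nlrp4c over only 26 columns. In all, the Nlrp4c window had 7 CG dinucleotides, which is the median of 32851 mouse windows. Among the others that rose, the upstream Nlrp5 window had 9 and that of the other annotated Nlrp5 start 1, Nlrp4e had 0, and Nlrp4f had 2, with all its upstream bases in an annotated exon. Among those that did not pass, the Nlrp4a windows had 5 and 3, and those of Nlrp9b and Nlrp9c 2 each. The windows of Nlrp9c and Nlrp9a aligned at 95.2% identity over 227 columns.

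4 motifs were searched on both strands. CCAAT, a motif added after the sequences were seen, was in 8 of the 12 windows, including those of Nlrp4c, Nlrp4b and the second Nlrp4a start, beside 37.4% of all mouse windows. GGCGGGAA, of the type E2F factors bind, was in the upstream window of Nlrp5 alone among the 12, beside 2.19% of all windows. CACGTG, an E-box, was in none of the 12 (7.15% of all windows), and TAATTG, a homeodomain-type motif, was in those of Nlrp9a and Nlrp9b (8.00% of all windows). The 2 Nlrp4b windows overlap, and they are related to those of Nlrp4c and the second Nlrp4a start. The Nlrp9a and Nlrp9c windows are also alike, so none of these are separate cases.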

How the data were processed

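The authors deposited 1 table for the 6 libraries, with a signal per gene (headed baseMean, DESeq2's average of normalized counts, per the file headers), a log2 fold change and an unadjusted p-value. Tools listed in the submitters' processing notes are STAR, DESeq2, FastQC and Trimmomatic 0.36, with mm10 and GRCm38 as builds. No counter, annotation or strand setting is given, and read totals are unknown. Libraries were polyA-selected, stranded and read in pairs, per the labels' protocols.

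The deposited p-values were adjusted after Benjamini and Hochberg across the 20461 genes that have one (statsmodels 0.14.6), and an adjusted p below 0.05 passes. Standard errors are the log2 fold change over the normal quantile of its p-value, and 95% intervals follow from them. Whole reads per library were solved from the deposited mean for members and Nlrp4g with a mean of up to 267 and for other listed genes with a mean of up to 75. Except at the lowest means, only group totals within a set range around the deposited fold change were searched. A solution had to be the only one found, or the only one with a matching negative binomial refit. A refit matched within 0.001 of the deposited log2 fold change, using the dispersion that gives the deposited p-value. All 63 genes tried were solved, and the refits differed from the deposited values by at most 5.8e-06. Read recovery was tested on simulated data, without the refit, at the levels of the solved members other than Nlrp4c and Nlrp14. Calling was tested on simulated fold changes. Outcomes of these tests are not given here. Within the range searched, the deposited mean allowed 3 sets of reads for Nlrp4c and 2 for Nlrp14, and the refit chose between them. Identity came from pairwise alignment (Biopython 1.88), with reading frames read as the longest in each gene's longest GENCODE M21 transcript. Coordinates are RefSeq's (GRCm38.p6), which held all 10 members.

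The members and gene lists were chosen with earlier results of these data known, so lists are described by counts and medians with no test. All members are named, and of each list the genes that passed, or the 3 with the smallest p-values where more passed. Genes listed at 0 are named as such, and other genes are said to be named after their values were seen. Alternatives changed the genes adjusted over, the threshold, a minimum fold change, centring, a GC trend (lowess, fraction 0.3, 97.2% of tested genes with a value), the distance for neighbours and the libraries used.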

Additional observations from a re-analysis of the deposited data

How the results depend on the processing

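The count of 5 members that rose fell to 3 (Nlrp4c, Nlrp4f and Nlrp14) at an adjusted p below 0.01 and with a Bonferroni adjustment. It was also 3 with p-values adjusted over genes whose mean is 50 or more, but that filter leaves out Nlrp4e and Nlrp5 beforehand. Over genes with a mean of at least 10, which leaves out Nlrp4e, the count was 4. Nlrp5 then had an adjusted p of 0.00937 in the DESeq2 comparison. Nlrp4e was not called at a threshold of 0.01, with Bonferroni or without the GC trend (4.35, adjusted p 0.0638), and Nlrp5 was not called at 0.01 or with Bonferroni. Over genes listed in order of p, an alternative added after the data were seen, adjusted p-values were 0.0391 for Nlrp4e and 0.0101 for Nlrp5. Nlrp9c turned to -0.0039 after removal of the GC trend, and its log2 ratio of recovered means ran from -0.32 to 1.38 when each library was left out. The value 1.38 is that without the control siRNA library with 9 reads. Ratios without 1 library were 3.27 to 4.04 for Nlrp4c, 2.19 to 2.75 for Nlrp5 and 4.02 to 5.03 for Nlrp4e, which has no ratio without the control siRNA library that holds its 1 read. Of 13 protein-coding genes tested within 100 kb of a member, 0 rose and 0 fell (1 higher and 0 lower before adjustment in the DESeq2 comparison). Within 500 kb 5 of 71 tested rose and 4 fell, beside 5.45% higher and 4.82% lower over all genes. These counts leave out the pseudogene Zscan4a near Nlrp4b, which rose. No paired analysis was possible because the table gives no replicate number for any value, and the calls could not be refitted without a library. Depth limits Nlrp4b, Nlrp9a, Nlrp9c and Nlrp4e most.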
